A study of Mus musculus with 8 samples.

Results

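DNA methylation was compared on the autosomes of the spleen between an aid-/- and an mbd4-/- mouse sample, as the mean signal of 13115 groups of neighbouring array probes, called regions here. The series holds 8 arrays, 1 for each of 8 groups, and 2 of them are used for the comparison. Regions were formed from probes on chromosomes 1 to 19 whose starts lay up to 500 bp apart, with at least 3 probes each. They took up 78814 probes, with a median of 5 probes and 627 bp a region, and 12479 of them carried a gene name.

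The first group is spleen DNA of aid-/- mice, which lack the cytosine deaminase AID. The second group is spleen DNA of mbd4-/- mice, which lack the methyl-CpG binding glycosylase MBD4. Both came from C57BL6/J mice aged 6 months, with the knockout mice supplied by different laboratories. The labels name no wild-type spleen, so each knockout stands only against the other, and every difference below is aid-/- minus mbd4-/-. Liver arrays of both genotypes, at the same age and strain, are used as a second tissue. Each group is 1 array, so there is no replicate and no test, and the SDs given are over the probes of a region on 1 array and say nothing of the spread between animals. The spleen aid-/- array lay on a slide of its own, the spleen and liver mbd4-/- arrays shared a slide and were scanned on another day, and genotype, source laboratory, slide and scan day cannot be told apart.

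The assay was methylated DNA immunoprecipitation. Sheared DNA is pulled down with an antibody against 5-methylcytidine, and the bound DNA, labelled with Cy5, is hybridised with the input, labelled with Cy3, on an array of probes in mouse CpG islands. Most CpG islands are unmethylated in somatic tissue, and the exceptions include the differentially methylated regions of imprinted genes, which carry methylation on 1 parental allele, and the promoters of many germline genes. AID deaminates cytosine and is known for somatic hypermutation and class switching in activated B cells, which the spleen is rich in. MBD4 excises thymine or uracil from mismatches that arise when methylated or unmethylated cytosine is deaminated, and both proteins have been discussed as parts of a route that removes methylation through deamination and base excision repair. A level below is the log2 ratio of bound over input signal, centred on the median of the autosomal probes of its array and scaled so that both arrays have the same 98th percentile of region means, 2.95. That value is called the plateau. A level near 0 or below is that of the bulk of unmethylated islands, and a level of at least 1.48, 50% of the plateau, is called high.

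The regions cannot check the mbd4 knockout, since the array holds 2 probes named Mbd4, too few for a region. Before scaling, the plateau was 2.25 on the aid-/- spleen array and 3.66 on the mbd4-/- spleen array, and in liver it was 2.23 in aid-/- and 4.04 in mbd4-/-. The bound signal was well above background at 82.0% of autosomal probes in aid-/- spleen and at 90.4% in mbd4-/- spleen. The arrays of 1 genotype thus resembled each other in range more than the arrays of 1 tissue did, and a fall of the plateau shared by all methylated regions cannot be seen in scaled levels. Input signal on the X chromosome, which the regions leave out, was lower in aid-/- than in mbd4-/- spleen by a median of -0.68 (log2, 2312 probes) relative to the autosomes, while single autosomes lay between -0.03 and 0.02. The labels do not give the sex of the animals.

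Across the autosomes the levels of the aid-/- and the mbd4-/- spleen followed each other closely, and most regions that were high in one were high in the other. Pearson's r across the 13115 regions was 0.924, given as a description since regions of an array share its depth and base composition. Of 1301 regions high in aid-/- spleen and 1188 high in mbd4-/- spleen, 1169 were high in both, and levels at or below 0 on both were found in 6260. Another 131 regions were high in aid-/- spleen with a level above 0 but not high in mbd4-/- spleen, and 19 were the other way round. A high level in aid-/- spleen met one at or below 0 in mbd4-/- spleen in 1 region, and the reverse held in 0 regions. That single region, at the serotonin transporter gene Slc6a4 (chr11:76811878-76812350, 3 probes), averaged 1.52 ± 2.07 in aid-/- and -0.38 ± 1.30 in mbd4-/- spleen (SD over probes), and with a SD of the probe differences of 3.28 it did not meet the call rule below.

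A region counted as called if the 2 levels were 1 (log2) or more apart, with 75% or more of the probes on the same side. By this rule 66 regions were higher in aid-/- than in mbd4-/- spleen, 0.503% of those measured, and 116 were lower, 0.884%. The median difference over all regions was -0.13, with 5th and 95th percentiles of -0.72 and 0.57. The difference was smaller than 0.5 in size in 77.4% of regions. Of the calls, 36.3% were in the higher direction (exact 95% binomial interval 29.3 to 43.7, counting error only), a split that went to 98.3% when each array was centred on its low mode and to 3.26% without the common 98th percentile.

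**Figure D1:**
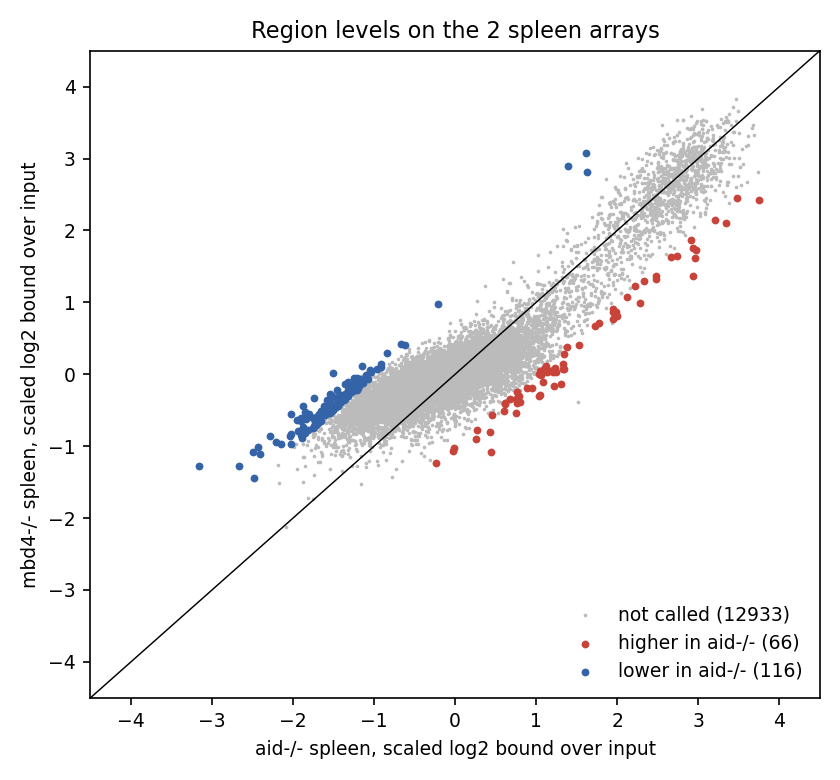
Scaled log2 bound over input of 13115 autosomal regions in aid-/- spleen (x axis) and mbd4-/- spleen (y axis), 1 point a region, with 66 regions called higher in red and 116 called lower in blue. The cloud is bent around the line of equality, the red points run along its lower edge, most blue points lie at its low end, and 3 blue points stand alone near 1.5 in aid-/- and 3 in mbd4-/- spleen.

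The calls had different places on this scale. Of the 116 lower calls, 102 lay at or below 0 on both arrays, with a median level of -1.51 in aid-/- and -0.40 in mbd4-/- spleen. Only 3 of the lower calls were high in mbd4-/- spleen. The 66 higher calls had a median level of 1.23 in aid-/- and 0.07 in mbd4-/- spleen, 25 of them were high in aid-/- spleen and 10 were high in mbd4-/- spleen. The median difference of all regions itself changed with level. It was -0.68 in the 278 regions whose mean level was below -1, where 53 of the lower calls lay, 0.12 in the 4035 regions between 0 and 1 and 0.27 in the 437 regions between 1 and 2. After the running median difference at the same level was taken out, an alternative chosen after seeing the data, 50 regions were higher and 8 were lower, and 27 of the 66 and 5 of the 116 calls were among them.

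The calls also moved with base composition and with the input channel. The median GC content was 51.8% in the higher calls, 56.3% in the lower calls and 56.4% over all regions. The median number of CpGs per 100 bases was 4.44 in the higher calls, 6.29 in the lower calls and 5.44 over all regions. The median difference over all regions was 0.08 in the tenth of them poorest in CpG and -0.26 in the tenth richest in it. With the median of each GC bin removed, 45 of the 66 higher and 74 of the 116 lower calls kept their call, and with probes of 45% to 65% GC alone 29 and 69 did. In the input channel, 166 regions were lower in aid-/- spleen by at least 1 (log2), 1.27% of those measured, and 0 were higher. Of these 166, 16 were among the higher calls and 1 was among the lower ones, and their median GC content was 48.1%. The median input difference was -0.57 in the higher calls, 0.07 in the lower calls and -0.17 over all regions. When the log2 input was averaged over both arrays, an alternative chosen after seeing the data, 22 of the 66 higher calls and 37 of the 116 lower calls kept their call.

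The calls that stood apart in the plot of levels came from 2 places, and both were lower in aid-/- spleen. The first is a pair of neighbouring regions on chromosome 17 (chr17:39980411-39981048 and chr17:39981533-39983633, mm9), 19 probes in all, which the older array design labels by their distance from mmu-mir-715. That microRNA sequence is known to lie within the ribosomal DNA repeat, which is present in many copies, and the files name no other gene there. The second is a region on chromosome 11 (chr11:108873014-108873374, 4 probes) to which the design gives no gene. The probes of both places were not compared with the ribosomal DNA sequence. Whether the 2 places are independent, or bind DNA from other copies, was not tested. The probes of the chromosome 11 region and the 4 probes of the smaller chromosome 17 region are printed with each CpG in capitals, to show the CpGs that the probes themselves hold.
chr11 probe 1: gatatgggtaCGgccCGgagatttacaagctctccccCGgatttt
chr11 probe 2: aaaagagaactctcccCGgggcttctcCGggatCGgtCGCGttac
chr11 probe 3: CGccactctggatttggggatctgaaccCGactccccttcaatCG
chr11 probe 4: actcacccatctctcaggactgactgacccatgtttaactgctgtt
chr17 probe 1: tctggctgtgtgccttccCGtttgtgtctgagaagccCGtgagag
chr17 probe 2: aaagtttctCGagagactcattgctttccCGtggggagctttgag
chr17 probe 3: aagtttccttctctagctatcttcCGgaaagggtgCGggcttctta
chr17 probe 4: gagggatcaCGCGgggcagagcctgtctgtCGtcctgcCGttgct

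The larger chromosome 17 region averaged 1.39 ± 0.59 in aid-/- spleen and 2.90 ± 0.55 in mbd4-/- spleen (SD over 15 probes), a difference of -1.51 with a SD of 0.34 over probes. The smaller one averaged 1.63 ± 0.14 in aid-/- and 2.81 ± 0.36 in mbd4-/- spleen (SD over 4 probes), a difference of -1.18. All 19 probes were lower in aid-/- spleen, and 18 of them by at least 1. The mbd4-/- spleen was therefore at the plateau here, and the aid-/- spleen near 50% of it.

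Over the 19 probes the input signal was 3.86 above the median autosomal probe (log2) on the aid-/- array and 3.53 on the mbd4-/- array, and none of the 19 probes was saturated in either channel. The bound signal was 5.10 above the median probe in aid-/- and 7.11 in mbd4-/- spleen. The liver input was 3.71 above the median probe in aid-/- and 3.84 in mbd4-/-. The bound signal in liver was 5.22 in aid-/- and 7.11 in mbd4-/-. In liver the mean over the same probes was 1.85 ± 0.59 in aid-/- and 2.41 ± 0.26 in mbd4-/- (SD over 19 probes), with 17 probes lower in aid-/- and a difference of -0.56, under the call limit. The larger region kept its call in all 16 alternatives planned for the processing that leave the limit of 1 in place. With the input averaged over both arrays its difference was -0.95, and that of the smaller region -0.69.

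The chromosome 11 region averaged 1.62 ± 0.53 in aid-/- and 3.08 ± 0.24 in mbd4-/- spleen (SD over 4 probes), a difference of -1.46. Its probes, in the order printed, had levels of 2.32, 1.50, 1.61 and 1.05 in aid-/- spleen and of 3.30, 3.24, 2.77 and 3.03 in mbd4-/- spleen. In liver the region averaged 1.13 in aid-/- and 2.84 in mbd4-/-, a difference of -1.71, so that it was called lower in aid-/- in both tissues. Its input signal was higher in aid-/- than in mbd4-/- by 0.89 in spleen and by 0.54 in liver (log2). With the input averaged over both spleen arrays the difference was -0.33. Probe 4 holds no CpG, and a probe reads the methylation of the longer fragments that it lies on.

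**Figure D2:**
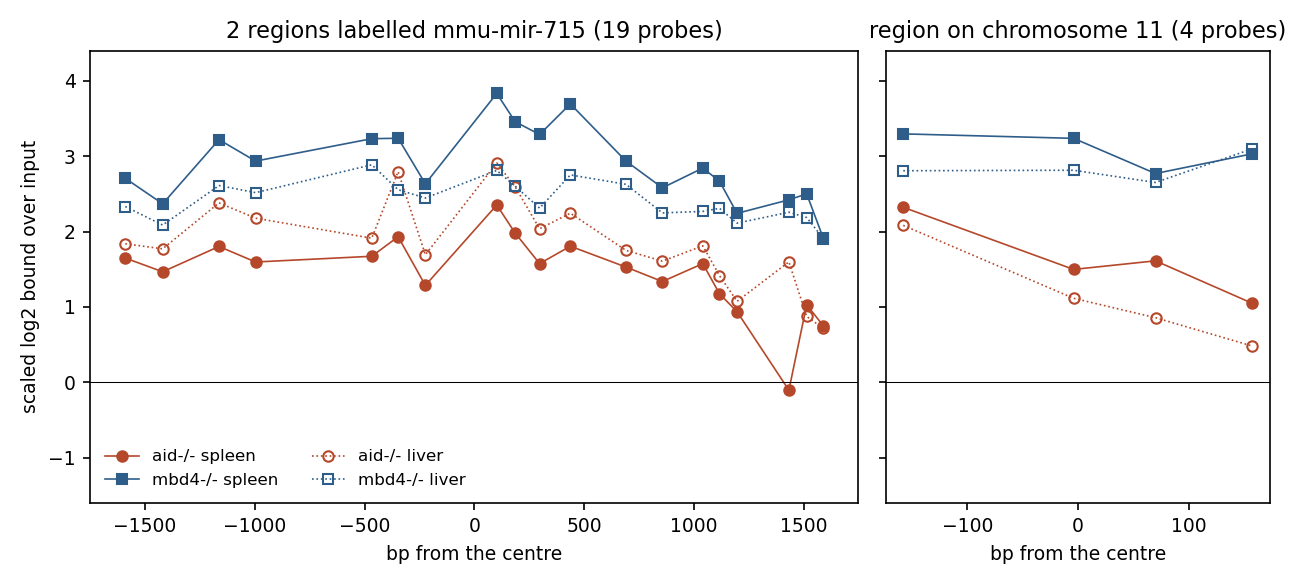
Scaled log2 bound over input of each probe against its distance in bp from the centre of the 2 neighbouring chromosome 17 regions (left, 19 probes) and of the chromosome 11 region (right, 4 probes), for aid-/- (circles) and mbd4-/- (squares), filled for spleen and open for liver. In spleen each aid-/- point lies below the mbd4-/- point of the same probe, and on chromosome 11 the liver points do as well.

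Among the higher calls the largest difference was at an unnamed region on chromosome 3 (chr3:34857993-34858375, 4 probes), at 2.93 ± 0.40 in aid-/- and 1.36 ± 0.34 in mbd4-/- spleen, a difference of 1.57 with a SD of 0.10 over probes, while its input was lower in aid-/- by -0.99. Before scaling its levels were 2.23 in aid-/- and 1.69 in mbd4-/- spleen. The call was lost without the common 98th percentile, with equal median absolute deviations, normexp background, the deposited value table and averaged input. The largest differences among gene-named regions included those of Hist1h2bf, Slitrk1, Adamts3, Grik2, Agbl4, Add1, Trim2, Slc5a7 and Ppap2a, between 1.53 and 1.24. In 5 of them, at Adamts3, Trim2, Add1, Ppap2a and Slc5a7, the level in mbd4-/- spleen was also above 0. At Hist1h2bf, the first of them, 1 of 3 bound probes was well above background on each array. Its input was lower in aid-/- spleen by -1.25, and it was not measured in liver. At Agbl4 2 of 3 bound probes in aid-/- and 1 in mbd4-/- spleen were well above background, and the input differed by -0.75.

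Adamts3, which encodes a protease of the procollagen N-propeptidase group, averaged 2.96 ± 0.49 in aid-/- and 1.62 ± 0.37 in mbd4-/- spleen (chr5:90113409-90113652, 3 probes), a difference of 1.34. Its 3 probes had levels of 2.55, 2.83 and 3.51 in aid-/- and of 1.26, 1.61 and 1.99 in mbd4-/- spleen. In liver it was also higher in aid-/-, at 2.63 against 1.83 in mbd4-/-. Its input differed by -0.24, close to the median over all regions. Before scaling its levels were 2.25 in aid-/- and 2.01 in mbd4-/- spleen. The call was lost without the common 98th percentile and with equal median absolute deviations.

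Trim2, a ubiquitin ligase gene, had 7 probes (chr3:83994431-83995119) and averaged 2.28 ± 0.64 in aid-/- and 0.99 ± 0.54 in mbd4-/- spleen. Its probes ran from 1.30 to 3.08 in aid-/- spleen and from 0.07 to 1.61 in mbd4-/- spleen. In liver Trim2 was high in both genotypes, at 3.08 in aid-/- and 3.00 in mbd4-/-. Mycn, the N-Myc transcription factor gene on the pluripotency list, had the same order, with 1.95 ± 0.46 in aid-/- spleen, 0.77 ± 0.18 in mbd4-/- spleen (SD over 5 probes, chr12:12943804-12944237), 2.80 in aid-/- liver and 2.73 in mbd4-/- liver. At both genes the 2 liver levels differed little and the mbd4-/- spleen was the lowest of the 4 arrays. Some of the Trim2 probes had no liver value. The input was lower in aid-/- spleen, by -0.56 at Trim2 and -0.63 at Mycn. Before scaling, aid-/- and mbd4-/- spleen stood at 1.73 and 1.23 at Trim2 and at 1.49 and 0.95 at Mycn. Both calls were lost without the common 98th percentile, with normexp background, with the deposited value table and with averaged input.

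Slc5a7, which encodes the high-affinity choline transporter, averaged 1.35 ± 0.61 in aid-/- and 0.08 ± 0.29 in mbd4-/- spleen (chr17:54437767-54438283, 4 probes). Slitrk1 and Grik2, a neuronal membrane protein and a glutamate receptor subunit, stood at 1.22 ± 0.49 and 1.03 ± 1.99 in aid-/- spleen and at -0.16 ± 0.82 and -0.31 ± 1.42 in mbd4-/- spleen (3 probes each). Add1 and Ppap2a were high on both arrays. Add1 had 3.75 ± 0.65 in aid-/- and 2.43 ± 0.57 in mbd4-/- spleen, and Ppap2a 3.35 ± 0.64 in aid-/- and 2.11 ± 0.29 in mbd4-/- spleen (3 probes each). The input of both was lower in aid-/- spleen, by -1.11 at Add1 and -1.45 at Ppap2a, and their differences changed sign when no common 98th percentile was set.

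The call at Epha6, an ephrin receptor gene (chr16:60605872-60606381, 5 probes), was kept in 15 of the 16 alternatives, more than any other higher call, as found after its values were seen. It averaged 0.80 ± 0.33 in aid-/- and -0.39 ± 0.45 in mbd4-/- spleen, a difference of 1.18, with an input difference of -0.07. In liver it was at -0.16 in aid-/- and -0.33 in mbd4-/-. Both Epha6 levels in spleen lie below 50% of the plateau.

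By measured difference the first of the lower calls among gene-named regions was Hist2h2ac, a replication-dependent histone gene, at -3.17 ± 0.59 in aid-/- and -1.28 ± 0.60 in mbd4-/- spleen (chr3:96024088-96024856, 3 probes). None of its 3 bound probes was well above background in aid-/- spleen and 1 was in mbd4-/- spleen, so the size of its difference, and with it its rank and call, cannot be given. With it, 5 of the 116 lower calls had no aid-/- bound probe well above background, among them Gatad1 and Kazald1. With the dim probes set to the lowest signal well above background, 0 of these 5 regions stayed below 0 in difference, so their calls rest on signal that was not measured. More calls than these 5 were lost when dim probes were left out. With only probes bound above background on both arrays, 36 of the 116 lower and 44 of the 66 higher calls were kept. This filter left 11983 of the 13115 regions, so a call could also be lost with its region. Normexp background kept 5 of the 116 and 1 of the 66. The authors' deposited values, over 11646 regions, kept 20 of the lower and 15 of the higher calls. Ttll1, Hexim1, AI848100, Leng1, Tmem106b, Eif3d and Akap8l were the rest of the 10 largest named lower calls, with differences between -1.52 and -1.31. Every one of the 10 had a level of at most 0.01 on both arrays, in the range of unmethylated islands.

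Among them Hexim1, an inhibitor of the elongation factor P-TEFb, averaged -2.02 ± 1.29 in aid-/- and -0.55 ± 0.40 in mbd4-/- spleen (8 probes, chr11:102978452-102979261), and 3 of its bound probes in aid-/- and all 8 in mbd4-/- spleen were well above background. Eif3d, a subunit of the translation initiation factor eIF3, averaged -1.85 ± 0.69 in aid-/- and -0.52 ± 0.30 in mbd4-/- spleen (7 probes, chr15:77800770-77801700). In liver Hexim1 stood at -0.70 in aid-/- and -0.65 in mbd4-/-, and Eif3d at -0.67 in aid-/- and -0.74 in mbd4-/-. The low levels of both genes were thus those of the aid-/- spleen array alone among the 4.

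**Figure D3:**
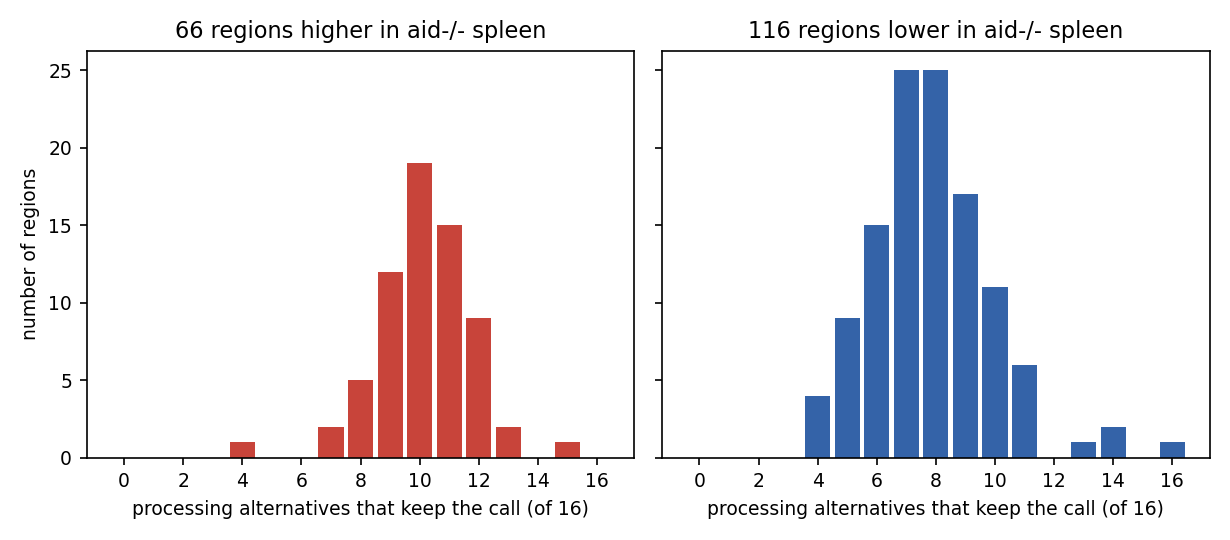
Number of regions (y axis) by the number of processing alternatives that keep their call (x axis, of 16), for the 66 regions higher in aid-/- spleen (left) and the 116 lower (right). Most higher calls were kept in 9 to 12 alternatives and most lower calls in 6 to 9, and 1 lower call, on chromosome 17, was kept in all 16.

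Regions of imprinted genes were high on both spleen arrays more often than regions at large. Of the 63 regions on the imprinted list, 27 were high on both arrays, 42.9% against 8.91% of all regions, and 16 were at or below 0 on both. Only 1 was called higher, at Zdbf2, and 0 lower, beside 0.503% and 0.884% over all regions. Zdbf2, a paternally expressed gene, averaged 0.68 ± 0.81 in aid-/- and -0.35 ± 0.75 in mbd4-/- spleen (4 probes). Its probes differed by 0.88, 0.53, 0.70 and 1.99, and its input by -0.68. Of its 4 bound probes, 2 in aid-/- and 3 in mbd4-/- spleen were well above background, and its call was kept in 8 of 13 alternatives. The median difference of the list was -0.11 (95% interval of the median from its ordered values, -0.25 to 0.03), against -0.13 over all regions.

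Of the 25 regions at the imprinted genes named by rule, 19 regions of 16 genes were high on both arrays, and in 16 of the 19 the level was lower in aid-/- spleen. Peg3, a paternally expressed zinc finger gene, averaged 1.96 ± 0.42 in aid-/- and 2.39 ± 0.28 in mbd4-/- spleen (9 probes). Airn, the antisense transcript that silences Igf2r in cis, averaged 1.95 ± 0.46 in aid-/- and 2.23 ± 0.43 in mbd4-/- spleen (10 probes), and Kcnq1ot1, the long transcript of the Kcnq1 domain, 2.13 ± 0.18 in aid-/- and 2.44 ± 0.45 in mbd4-/- spleen (8 probes). The growth factor receptor adaptor gene Grb10 had 2.46 ± 0.25 in aid-/- and 2.62 ± 0.32 in mbd4-/- spleen in its region of 9 probes, and lower levels of 0.48 and 0.52 in aid-/- and of 0.27 and 0.20 in mbd4-/- spleen in its others. These differences do not reach the call limit. At Peg3 the difference was -0.43 with a SD of the probe differences of 0.27, and all 9 probes were lower in aid-/- spleen. At Airn it was -0.28 with a SD of 0.27 (8 of 10 probes lower), and at Kcnq1ot1 -0.31 with a SD of 0.41 (6 of 8). The Grb10 region of 9 probes differed by -0.16 with a SD of 0.36 (7 of 9 lower).

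The Gnas locus, which encodes the stimulatory G protein alpha subunit, gave 5 regions. Its 4 high regions lay between 1.80 and 2.01 in aid-/- and between 2.10 and 2.53 in mbd4-/- spleen, and the region of 20 probes differed by -0.52 with a SD of 0.43 over probes. Peg13, a noncoding transcript, had the largest difference of the 19, with 2.26 ± 0.25 in aid-/- and 3.01 ± 0.31 in mbd4-/- spleen (5 probes), and in liver 2.41 in aid-/- and 3.00 in mbd4-/-. Nap1l5, Dlk1 and Mcts2 went the other way, with differences of 0.40, 0.32 and 0.09. Rasgrf1 was near 0 on both arrays, at -0.16 ± 0.67 in aid-/- and -0.07 ± 0.53 in mbd4-/- spleen (16 probes).

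The median of the 19 regions was 1.96 in aid-/- and 2.33 in mbd4-/- spleen, both short of the plateau. Their median difference was -0.30 in spleen and -0.31 in liver, and 15 of the 19 were below 0 in both tissues. Over all 1169 regions high on both spleen arrays the median difference was 0.04 and 45.2% were below 0, and over the 458 of them with a mean level between 1.5 and 2.5 it was 0.12 and 35.8%. Across the alternatives the median ran from -1.48 to -0.19. In those that kept all 19 regions at least 14 were below 0, and in those that left 15 or 17 of them at least 12 were. The 19 regions were picked out by their levels on these arrays, so these counts describe these 4 arrays and carry no test.

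**Figure D4:**
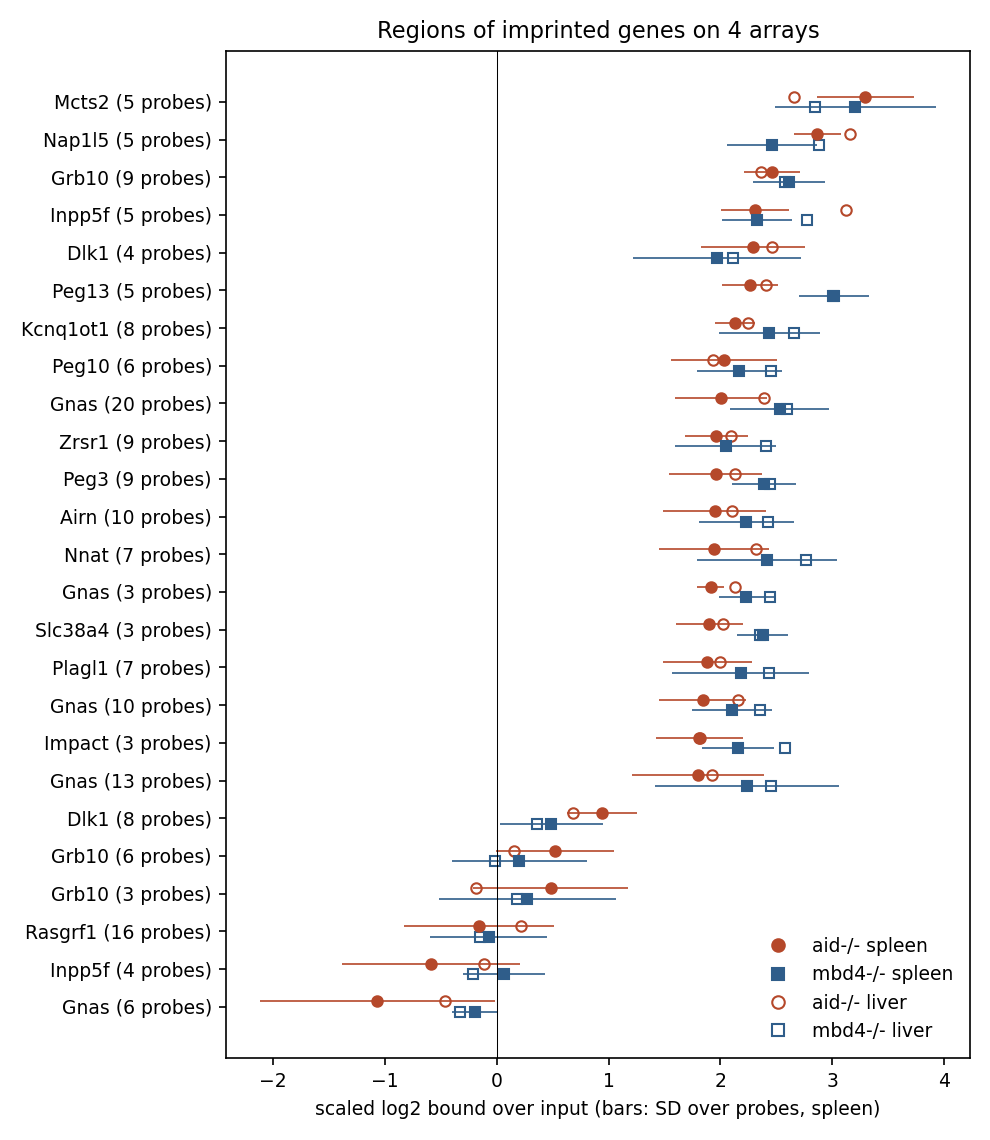
Scaled log2 bound over input (x axis) of the 25 regions at imprinted genes (rows, with the number of probes), for aid-/- (circles) and mbd4-/- (squares), filled for spleen with the SD over probes and open for liver. The upper 19 regions lie between 1.80 and 3.30 in aid-/- and between 1.97 and 3.21 in mbd4-/- spleen, and in most of them the circles lie left of the squares.

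Germline genes, silenced by promoter methylation in somatic tissue, were high on both arrays in 25 of 39 regions, with a median level of 2.59 in aid-/- and 2.30 in mbd4-/- spleen, and 0 regions were called either way, where 0.503% of all regions were called higher and 0.884% lower. The protocadherin clusters, which encode neuronal adhesion molecules from alternative promoters, were high on both in 9 of 13 regions, and 1 was called higher, at Pcdha12, with 2.22 ± 0.58 in aid-/- and 1.22 ± 0.67 in mbd4-/- spleen (3 probes), a difference at the call limit that was kept in 4 of 15 alternatives. Genes on the housekeeping list were low. Of 54 housekeeping regions 0 were high on both arrays, the median level was -0.60 in aid-/- and -0.29 in mbd4-/- spleen, and 2 were called lower, at the replication helicase gene Mcm5 and the ATP synthase gene Atp5a1. Ribosomal protein genes had a median of -0.53 in aid-/- and -0.20 in mbd4-/- spleen over 53 regions, with 0 calls.

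Developmental regulators of the kind held by Polycomb complexes gave 512 regions, of which 7 were called higher and 0 lower, beside 0.503% and 0.884% over all regions. The named ones were Isl2, Pax8 and Nr2f2. Isl2, a LIM homeodomain gene, averaged 1.08 ± 0.53 in aid-/- and -0.11 ± 0.28 in mbd4-/- spleen, with all 10 probes higher in aid-/- (chr9:55393223-55394588). Pax8, a paired box gene, averaged 0.77 ± 0.29 in aid-/- and -0.40 ± 0.86 in mbd4-/- spleen (4 probes). The nuclear receptor gene Nr2f2 had 2 called regions, of 3 and 10 probes, at 1.24 ± 0.21 and 0.89 ± 0.67 in aid-/- and 0.08 ± 0.61 and -0.19 ± 0.38 in mbd4-/- spleen. The input differed by -0.51 at Isl2, -0.72 at Pax8 and -0.44 and -0.24 at Nr2f2, against -0.17 over all regions. With averaged input the calls at Isl2, Pax8 and the smaller Nr2f2 region were lost, and the larger Nr2f2 region kept its call. Isl2, Pax8 and the larger Nr2f2 region lost theirs with probes of 45% to 65% GC and with the deposited value table. The list's median difference was 0.09, and 0.22 above that of all regions, with a range of 0.13 to 0.25 above them over the alternatives. The Hox clusters had a median difference of 0.13 over 64 regions and 0 calls.

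Cell type lists gave few calls, and the median level of each lay between -0.31 and 0.11 in aid-/- and between -0.22 and 0.07 in mbd4-/- spleen. Their counts are to be read beside 0.503% of all regions called higher and 0.884% called lower, as are those of the other lists in this paragraph. B cell genes, the cells in which AID acts, had 0 calls in 40 regions, with a median level of -0.31 in aid-/- and -0.22 in mbd4-/- spleen. There were also 0 calls in 35 regions of T and NK cell genes, in 35 regions of myeloid genes and in 20 regions of liver genes. Of 35 erythroid and platelet regions 1 was called lower, at the glycophorin C gene Gypc, and of 51 stroma and endothelium regions 2 were called higher, both at Nr2f2. Genes of DNA methylation and base repair had 0 calls in 41 regions, with a median level of -0.46 in aid-/- and -0.20 in mbd4-/- spleen. These lists differed little in level between the spleen and liver arrays and do not check the labelled tissue. The pluripotency list had 2 higher calls in 42 regions, at Mycn and at the zinc finger gene Sall1. At Sall1 1 of 4 bound probes in aid-/- and 3 in mbd4-/- spleen were well above background, and the input differed by -1.25. The replication-dependent histones had 1 higher and 2 lower calls in 15 regions, at Hist1h2bf, Hist2h2ac and Hist1h1c. Among 247 regions of Zfp genes 2 were higher and 1 was lower, at Zfp217, Zfp105 and Zfp687, and among 74 microRNA regions 1 was lower, at Mir3064. The older array design labels the Mir3064 region Ddx5, and its call was kept in 8 of 18 alternatives.

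Few of the spleen calls were calls in liver, a result that depends on the scaling. On the same regions 12997 could be measured in liver, where 53 were higher in aid-/-, 0.408%, and 59 were lower, 0.454%. Of the spleen calls measured in liver, 2 of 65 higher ones (3.08%) and 1 of 114 lower ones (0.877%) were called the same way there. These are 3.77% of the higher and 1.69% of the lower calls in liver. Together 1.68% of the spleen calls were called the same way in liver, while the share was 83.1% without the common 98th percentile and 24.4% with equal median absolute deviations. The differences in spleen and in liver correlated at 0.326 (Pearson) across regions, as a description. In sign, 57 of the 65 higher calls were above 0 in liver and 82 of the 114 lower calls were below it, where 48.9% and 51.1% of all regions were. Their median liver differences were 0.32 and -0.24, far smaller than the medians of 1.11 and -1.09 in spleen. The median liver difference of all regions also changed with the mean level in spleen. It was -0.08 below -1, -0.06 from -1 to 0, 0.07 from 0 to 1, 0.22 from 1 to 2 and 0.02 from 2 up. The shares of sign over all regions were not matched to the calls in level. The spleen and liver pairs share source laboratory with genotype, and the mbd4-/- arrays of both tissues share a slide.

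The 3 regions called the same way in both tissues were the chromosome 11 region above and those of Kcnj3 and Gm7120. Their probes are shown for the same reason.
Kcnj3 probe 1: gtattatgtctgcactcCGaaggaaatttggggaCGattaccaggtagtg
Kcnj3 probe 2: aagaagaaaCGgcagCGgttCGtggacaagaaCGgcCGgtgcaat
Kcnj3 probe 3: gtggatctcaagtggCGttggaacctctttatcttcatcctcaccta
Gm7120 probe 1: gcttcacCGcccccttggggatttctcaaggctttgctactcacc
Gm7120 probe 2: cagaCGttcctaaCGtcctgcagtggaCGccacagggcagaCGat
Gm7120 probe 3: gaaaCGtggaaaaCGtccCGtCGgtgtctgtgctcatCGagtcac

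Kcnj3, an inwardly rectifying potassium channel gene (chr2:55289607-55289883), averaged 0.60 ± 0.16 in aid-/- and -0.52 ± 0.15 in mbd4-/- spleen (SD over 3 probes), and -0.02 in aid-/- and -1.12 in mbd4-/- liver. The spleen difference was 1.11 and the liver levels were as far apart, but no array reached 50% of the plateau. The Kcnj3 input was lower in aid-/-, by -0.25 in spleen and by -0.86 in liver. Its spleen call was lost with GC bin medians removed, with normexp background and with the deposited value table. Gm7120, a predicted gene (chr13:120276809-120277073), averaged 2.66 ± 0.02 in aid-/- and 1.63 ± 0.26 in mbd4-/- spleen (SD over 3 probes). In liver the Gm7120 gap was wider, 3.03 in aid-/- and 0.97 in mbd4-/-. Its input differed by -0.14 in spleen and 0.09 in liver, and its spleen difference was 0.01 without the common 98th percentile and 1.07 with the input averaged.

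**Figure D5:**
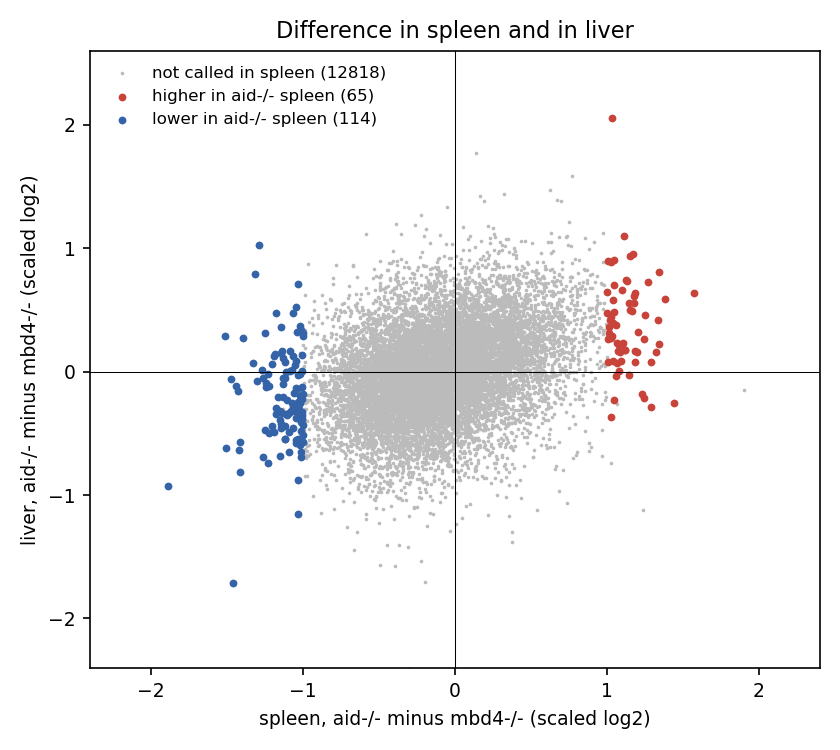
Difference aid-/- minus mbd4-/- (scaled log2) in spleen (x axis) and in liver (y axis) for the 12997 regions measured in both, with the calls in spleen in red (65 higher) and blue (114 lower). Most red points lie above 0 and most blue points below 0 in liver, with medians of 0.32 and -0.24. Gm7120 is the red point at the top and the chromosome 11 region the blue point at the bottom.

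By chromosome, between 0.680% and 2.52% of the regions were called, the lowest share on chromosome 14 and the highest on chromosome 3. The most even regions among the 100 with the highest mean level were those of Bend3, Xpot, H1fnt, Rbfa and Dact1, at 3.26, 3.18, 3.21, 3.15 and 3.30 in aid-/- spleen and 3.27, 3.19, 3.21, 3.17 and 3.28 in mbd4-/- spleen.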

How the data were processed

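The data are microarrays of methylated DNA immunoprecipitation, bound DNA in Cy5 and input in Cy3, on the Agilent mouse CpG island array (mm9, per the file headers). The deposited scanner files hold intensity values per spot, made with Agilent Feature Extraction 10.9.1.1 for the spleen and liver arrays, per the file headers, with background subtracted and dyes normalized in the processed signals. They also hold a log10 ratio of red over green, whose deposited values correlated at 0.985 (aid-/- spleen) and 0.999 (mbd4-/- spleen) with the log2 ratio used here. The value table deposited by the authors is treated as a score, since its scale and centring are not given in the sources used here. Its direction is that of bound over input, as its correlation with the log2 ratio was 0.937 and 0.970, and its medians were -0.10 and -0.21.

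From the processed signals, bound over input ratios were put on the log2 scale and centred on the median of 85850 autosomal probes that are no controls. Probes whose input was not well above background on both arrays, or that carried an outlier mark, were left out (3817). The rest were joined into regions and each array was scaled to a common 98th percentile of region means, the mean of both arrays' own. Gene names were those of the newest array design among the files, since the spleen files carry none. Of 10436 names 9372 are current symbols and 1017 older synonyms in RefSeq's list. Probe sequences came from the same design. Calls carry no p-value, as each group is 1 array. The rule for named regions took the 10 largest gene-named calls a direction, up to 3 calls a direction of each gene list, imprinted genes of a fixed set, regions called in both tissues, and the 5 most even of the 100 highest. The gene lists and the regions were chosen with earlier results of these data known. Regions named outside the rule are the unnamed calls on chromosomes 3, 11 and 17, and Epha6. A few regions that the rule or these choices would name are not reported here.

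The number of arrays, 1 a group, limits the precision, and the counting intervals cover counting error only. Alternate probes of the 5874 regions with 6 or more probes gave differences that correlated at 0.488, across regions. The normexp alternative (limma 3.58.1, offset 50) used the median signal, as the spleen files hold no mean signal. The procedure was run on simulated arrays of unlike range, with planted shifts larger than the call limit. These lacked the change of the difference with level, base composition and input seen here, so they do not check the calls. Python 3.11.15 with pandas, numpy and scipy was used. The other 4 arrays of the series were not used.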

Additional observations from a re-analysis of the deposited data

Results flagged for a closer look

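The region of 2410127L17Rik, a gene known by its clone name (chr19:18745892-18746106, 3 probes), was called in opposite directions in the 2 tissues. It was lower in aid-/- spleen, by -1.29, and higher in aid-/- liver, by 1.02, and this contrast between tissues was not tested. The levels were -2.41 in aid-/- and -1.11 in mbd4-/- spleen, and -0.49 in aid-/- and -1.51 in mbd4-/- liver, all in the range of unmethylated islands. In aid-/- spleen 0 of its 3 bound probes was well above background, so the size of the spleen difference was not measured and the opposite call in the 2 tissues is not established.

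The input signal of the X chromosome, which the comparison leaves out, was lower in aid-/- than in mbd4-/- spleen by -0.68 (log2) relative to the autosomes, and by -0.15 in liver. No autosome differed from the others by more than 0.03 in size.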

How the results depend on the processing

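The counts of calls depended on the processing more than any other result, and the cause was not tested except where the alternative itself states it. Against 66 higher and 116 lower calls, of which 36.3% were higher, the counts were 27 higher and 802 lower (3.26% higher) without the common 98th percentile, 30 and 950 (3.06%) with equal median absolute deviations, 290 and 5 (98.3%) with centring on the low mode, and 63 and 8 (88.7%) after quantile normalization. They were 45 and 188 (19.3%) with probes of 45% to 65% GC, 1 and 6 (14.3%) with normexp background, 38 and 62 with the deposited value table, 141 and 74 (65.6%) without a probe filter, and 53 and 74 with probes whose bound signal was above background on both arrays. They were 72 and 193 (27.2%) with probes up to 250 bp apart, 28 and 74 (27.5%) with at least 5 probes, which leaves fewer regions, and 2 and 3 with a difference of at least 1.5. Of the alternatives chosen after seeing the data, averaged input gave 101 and 193, and removal of the median difference at the same level gave 50 and 8 (86.2%). The common 95th and 99th percentiles, GC bin medians removed, probes up to 1000 bp apart and 90% of probes kept both counts within 1.5 times.

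The single region high in aid-/- spleen and at or below 0 in mbd4-/- spleen became 0 under low-mode centring, the GC range, normexp, the deposited table, the bound filter, probes up to 250 or 1000 bp apart, at least 5 probes and removal of the difference at the same level, 6 without a probe filter and 2 with averaged input. Regions at or below 0 in aid-/- spleen and high in mbd4-/- spleen numbered 1 with the GC range, against 0. The median difference of imprinted regions, -0.11, was -0.38 without the common percentile, -0.43 with equal deviations and 0.14 with low-mode centring, where its sign reversed.

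The share of spleen calls called the same way in liver, 1.68%, was 83.1% without the common percentile, 24.4% with equal deviations, 6.21% with low-mode centring, 5.71% after quantile normalization, 14.3% with normexp, 5.32% with the deposited table, 7.91% without a filter, 0% with 5 probes and with a difference of 1.5, 11.2% with averaged input and 7.02% with the difference at the same level removed. Input differences numbered 166, with 470 without a filter and 5 at a difference of 1.5.

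Single calls that changed sign were Add1 (-0.16 without the common percentile, -0.39 with equal deviations), Ppap2a (-0.064, -0.27, and -0.11 with averaged input), Gm7120 (-0.15) and an unnamed region on chromosome 18 (-0.059) with equal deviations, Gatad1 (0.16) and 2410127L17Rik (0.0054) with normexp, and Sall1 (-0.062) and Pcdha12 (-0.13) with averaged input.

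Signal over background limits the low end of the scale, where bound signal was well above background at fewer probes in aid-/- than in mbd4-/- spleen (82.0% and 90.4%).

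No paired analysis was possible because each group holds 1 array.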
